A study of Mus musculus with 21 samples.

Results

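Embryoid bodies expressing TWIST1 as a homodimer were compared with embryoid bodies expressing TWIST1 as a monomer. The comparison rested on the 3 samples titled TWIST1 homodimer induced and the 3 samples titled TWIST1 monomer induced, 6 of the 21 samples of the series, and covered the 13718 genes with enough counts to be tested. All samples were embryoid bodies, floating aggregates in which mouse embryonic stem cells (ESCs) differentiate, from A2loxCre ESCs (strain label C57BL/6) collected on day 3. In A2loxCre cells a coding sequence can be placed behind a doxycycline-inducible promoter. The homodimer group carried the integrated TWIST1-TWIST1 sequence (genotype label A2loxCre/ Twist1 homodimer integrated) and the monomer group the single TWIST1 sequence (A2loxCre/ Twist1 monomer integrated). Both received doxycycline, with induction for 16 h before collection. A further 6 samples served as references. These were 3 samples of the monomer line left without doxycycline and 3 of the parental A2loxCre line, which has no TWIST1 sequence integrated, with doxycycline. The homodimer line had no uninduced samples among those analysed here, and the labels name 1 line for each construct and do not say whether a line is 1 clone. The labels do not state whether replicates were separate cultures, so the p-values below measure the spread between these samples, which may be technical.

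TWIST1 is a transcription factor of the basic helix-loop-helix class. Such proteins bind DNA as pairs, each partner reading part of a short palindrome called an E-box, CANNTG. TWIST1 can pair with itself or with the widely expressed E-proteins TCF3, TCF4 and TCF12, and the choice of partner is known to alter which genes respond. Id proteins lack the DNA-binding region and titrate E-proteins away. In embryos TWIST1 acts in the cranial mesenchyme, limb and neural crest. TWIST dimers are also known to favour pairs of E-boxes that lie 5 bases apart.

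Promoters of the responding genes were therefore searched for that pair, CANNTG, any 5 bases, CANNTG, in the 250 bases before each RefSeq start site (assembly GRCm38.p6). Both strands were searched. By its construction every such pair also counts as a single CANNTG. Of the 13718 tested genes, 9993 (72.8%) had a promoter in the table by symbol, and 48 of these (0.48%) held the pair. Of the 346 genes at least 2-fold higher in the homodimer than in the monomer line, 241 had a promoter in the table and 4 of these held the pair. Of the 448 at least 2-fold lower, 316 had a promoter and 0 held it. Of 300 genes higher in both induced lines, each against its own reference, 229 had a promoter and 6 of these held the pair (2.62%). Of 155 genes lower in both, 109 had a promoter and 1 held it (0.917%). Of all 32851 promoters, 0.639% held the pair, 66.2% a single CANNTG, 3.46% CATATG and 14.4% CATCTG or its reverse CAGATG. For the 12851 promoters of tested genes these shares were 0.389%, 57.8%, 1.6% and 9.82%. A single CANNTG was in 60.7% of promoters of the 2-fold higher, 64.4% of the 2-fold lower and 55.9% of the genes higher in both. In the same order, CATATG was in 1.84%, 2.87% and 2.89%, and CATCTG in 12%, 11% and 10.3%. The windows below show the pair in capitals for the 4 genes at least 2-fold higher and for Anpep, 1 of the 6 genes higher in both induced lines, the others being Lax1, Coro7, Ier3, Igsf3 and S1pr2. They are drawn in the direction of the gene, and a match of letters shows no binding.
Lax1 (chr1:133690182-133690278, minus strand): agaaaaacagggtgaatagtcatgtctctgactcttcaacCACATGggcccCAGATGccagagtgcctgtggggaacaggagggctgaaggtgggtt
Pde1b (chr15:103506876-103506947, plus strand): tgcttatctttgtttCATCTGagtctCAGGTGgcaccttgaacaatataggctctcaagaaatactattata
Lrtm2 (chr6:119330767-119330853, minus strand): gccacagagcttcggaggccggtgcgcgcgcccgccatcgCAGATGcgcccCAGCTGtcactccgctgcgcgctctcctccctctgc
Siglecf (chr7:43351192-43351288, plus strand): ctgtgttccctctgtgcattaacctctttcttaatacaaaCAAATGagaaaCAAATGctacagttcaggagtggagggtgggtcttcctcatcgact
Anpep (chr7:79848375-79848460, minus strand): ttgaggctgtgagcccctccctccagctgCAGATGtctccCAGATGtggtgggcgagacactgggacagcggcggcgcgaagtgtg

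Expression is given below in CPM, counts scaled to a common library size, and 3 values in a row are samples 1, 2 and 3 of a group. Fold changes are on the log2 scale, from the quasi-likelihood F-test of edgeR on the 12 samples. The value after ± is an approximate standard error, the absolute log2 fold change divided by the square root of F. A gene is said to pass at an adjusted p under 0.05. For 23.6% of all tested genes every homodimer sample lay above every monomer sample, and for 22.3% below. Pde1b, which encodes a phosphodiesterase, was at 25.3, 21.4 and 23.4 CPM in the homodimer samples and 6.34, 7.70 and 6.41 CPM in the monomer samples. Its groups did not overlap (1.77 ± 0.12, adjusted p = 1.6e-11), and the monomer samples overlapped the parental samples (6.21, 6.41 and 5.16 CPM). Anpep, an aminopeptidase of the cell surface, was at 64.7, 62.5 and 66.96 CPM in the homodimer, 40.9, 43.5 and 37.4 in the monomer, 16.9, 17.9 and 17.2 in the uninduced monomer and 18.2, 16.7 and 18.9 in the parental samples. It was thus higher in both induced lines than in either reference, and higher in the homodimer than in the monomer line (0.67 ± 0.065, adjusted p = 1.1e-08). Lax1, an adaptor of lymphocyte signalling, had no counts in the 6 reference samples. It was at 15.01, 13.4 and 14.5 CPM in the homodimer and 3.40, 2.46 and 3.64 CPM in the monomer samples (2.17 ± 0.17, adjusted p = 1.7e-09). Lrtm2, a transmembrane protein with leucine-rich repeats, was at 5.29, 4.38 and 5.03 against 1.70, 1.23 and 0.855 CPM, and Siglecf, a sialic acid-binding lectin, was near the floor at 1.73, 1.97 and 2.46 against 0.679, 0.781 and 0.535 CPM. Neither group overlapped its counterpart. The other pair-holding genes that were higher in both induced lines did not share a direction between them. Ier3 (-0.62 ± 0.18, adjusted p = 0.0086) and S1pr2 (-0.53 ± 0.083, adjusted p = 1.7e-05) were lower in the homodimer than in the monomer line, while Coro7 differed by 0.067 ± 0.074 (adjusted p = 0.52) and Igsf3 by 0.21 ± 0.07 (adjusted p = 0.019).

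Total counts in the 12 samples lay between 6648842 and 11065289. The lowest belonged to sample 1 of the uninduced monomer line, which also stood apart from the other 2 of its group. The chi-square per degree of freedom between it and them was 39.2 and 43.9, against 1.46 to 2.72 for all other pairs within a group, and Lars2 took 3.05% of its counts. It entered no homodimer or monomer mean, and without it 4883 genes passed between homodimer and monomer, close to the main count below. Counts of Twist1 cannot tell the integrated sequence from the endogenous gene.

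The construct gene was examined first. Twist1 was at 199.6, 180.1 and 166 CPM in the homodimer samples and 644, 602 and 582 CPM in the monomer samples. The groups did not overlap, and the homodimer line had the lower level (log2 fold change -1.74 ± 0.057, adjusted p = 2.2e-17). Both lay far above the uninduced monomer samples (4.35, 5.59 and 5.14 CPM) and the parental samples (8.93, 8.04 and 7.39 CPM). So the 2 induced lines differed in the amount of Twist1 RNA as well as in the form of the protein, and these cannot be told apart in what follows. A TWIST1-TWIST1 transcript may hold the Twist1 sequence more than 1 time, so the fold change is not a ratio of transcript numbers. Of the E-protein genes, Tcf12 differed by 0.0079 ± 0.072 (adjusted p = 0.95) and Tcf4 by 0.16 ± 0.089 (adjusted p = 0.18), neither of which passed. Tcf3 passed at 186, 187 and 180.03 against 177, 171 and 148 CPM (0.16 ± 0.053, adjusted p = 0.022), and this call was lost without monomer sample 3, homodimer sample 1 or homodimer sample 2.

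Of the 4 Id genes, 3 were higher in the homodimer line, where 17.5% of all tested genes were. Their products keep E-proteins from DNA. Id3 was at 87.04, 92.9 and 93.5 CPM against 44.8, 41.7 and 40.2 CPM in the monomer samples (1.11 ± 0.066, adjusted p = 1.5e-12). Id4 was at 8.32, 6.70 and 7.50 against 3.06, 3.79 and 3.31 CPM (1.14 ± 0.18, adjusted p = 1.9e-05), and Id1 at 94.7, 106 and 97.9 against 74.2, 73.8 and 64.9 CPM (0.49 ± 0.063, adjusted p = 1.0e-06). None of these groups overlapped. Id2 was at 61.99, 69.3 and 64.9 CPM in the homodimer and 68.4, 63.95 and 63.8 CPM in the monomer samples, and these overlapped (adjusted p = 0.98). Against their references, Id1, Id2 and Id3 passed as higher in both lines, by 1.28, 0.97 and 1.03 in the monomer line against its uninduced samples and by 1.66, 1.24 and 1.23 in the homodimer line against the parental samples. Id3 also differed between the 2 references (-0.92 ± 0.083, lower in the uninduced monomer line), by nearly as much as between the induced lines. In the fit of all 21 samples Id1 no longer passed.

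Hprt, next to which the inducible cassette of A2loxCre cells lies, separated the lines as well. It was at 14.9, 12.7 and 16.02 CPM in the homodimer, 22.1, 19.4 and 19.6 in the monomer, 4.51, 3.52 and 3.30 in the uninduced monomer and 86.05, 81.2 and 81.5 in the parental samples. Every group with an integrated sequence lay below the parental line, and the uninduced monomer samples were lowest.

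**Figure D1:**
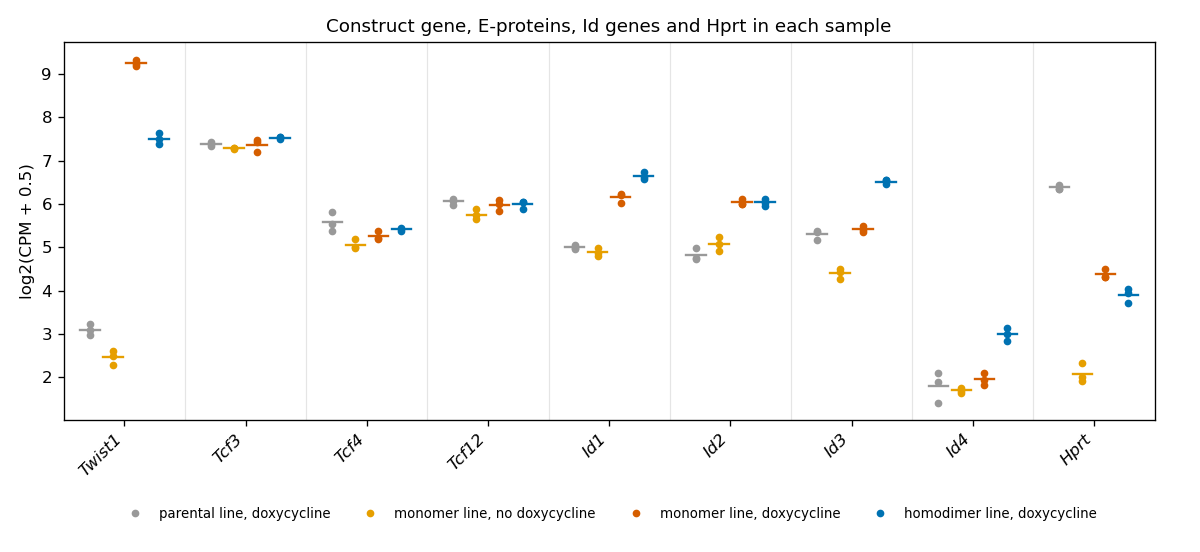
Levels of Twist1, the E-protein genes, the Id genes and Hprt as log2(CPM + 0.5) in 4 groups of 3 samples; points are samples and bars are group means. Twist1 is high in both induced lines and higher in the monomer line, Id3 and Id4 are highest in the homodimer line, and Hprt is highest in the parental line.

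Across the transcriptome, 4767 of the 13718 genes (34.7%) passed between homodimer and monomer, 2405 as higher in the homodimer line (17.5%) and 2362 as lower (17.2%). At a change of at least 2-fold, 346 genes were higher (2.52%) and 448 lower (3.27%). The median over all genes was 0.0073. In the fit of all 21 samples, whose common spread is larger (biological coefficient of variation 0.12 against 0.0574), 2642 genes passed, and 2610 of them (98.8%) were among the 4767.

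Many of these genes also differed between the 2 reference groups. The uninduced monomer line and the parental line share no sample with the induced lines, and 5288 genes passed between them (38.5%), 2615 higher in the uninduced monomer line (19.1%) and 2673 lower (19.5%). With library size as the sole scaling this split became 2008 and 3380. These 2 groups differ in line, which includes the integrated sequence, and in doxycycline, and this comparison alone cannot tell them apart. Of the 2362 genes lower in the homodimer than in the monomer line, 1541 (65.2%, and 58.9% of the 2615) were higher in the uninduced monomer than in the parental line, and 53 (2.24%) were lower. Of the 2405 higher in the homodimer line, 1366 (56.8%, and 51.1% of the 2673) were lower in the uninduced monomer line and 64 (2.66%) were higher. Across the 13718 genes Pearson's r between the 2 log2 fold changes was -0.66 and Spearman's rho -0.6. Genes are not independent replicates, and all lines came from the same ESC line, so this is a description.

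The 2 directions differed in this respect. The 448 genes at least 2-fold lower in the homodimer line had a median log2 fold change of -1.49, and 376 of them (83.9%) were higher in the uninduced monomer than in the parental line, where their median was 1.29. The 346 genes at least 2-fold higher had a median of 1.33, and 179 (51.7%) were lower in the uninduced monomer line, with a median of -0.74. A difference that takes this into account was computed as (homodimer minus parental) minus (monomer minus uninduced monomer), here called the line-referenced difference. By this formula it equals the direct difference plus that of the uninduced monomer line over the parental line. Where the references are alike, it must therefore lie close to the direct one. Its median was -0.39 over the 448 genes and 0.64 over the 346. These values share samples with the comparison that chose the genes and are given as a description.

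**Figure D2:**
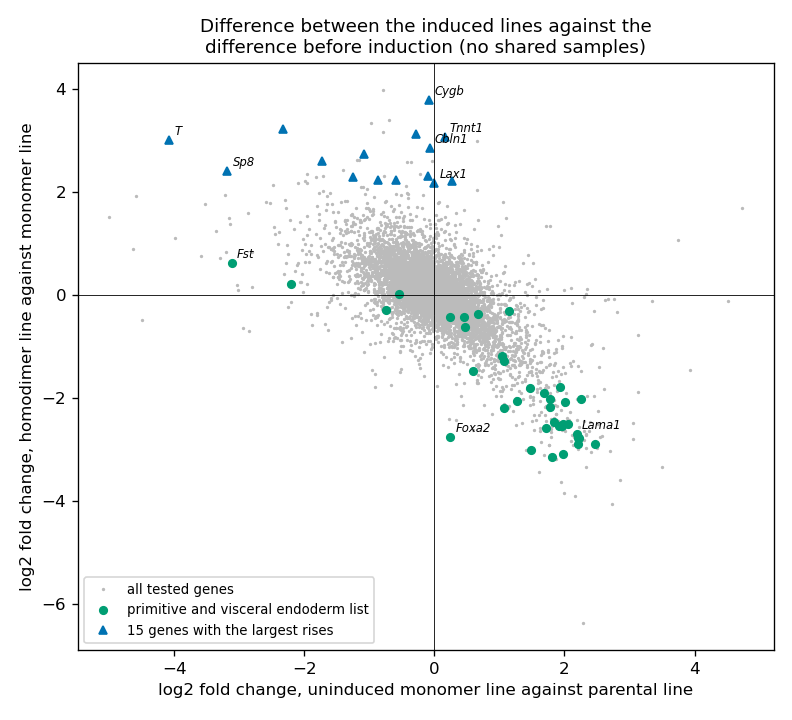
Each point is 1 of 13718 genes; x, log2 fold change of the uninduced monomer line against the parental line; y, log2 fold change of the homodimer against the monomer line, from disjoint samples. Most endoderm genes (circles) lie at the lower right, higher in the uninduced monomer line than in the parental line, and Fst lies at the upper left. Cygb, Tnnt1, Cbln1 and Lax1 lie near 0 on the x axis. Lax1 had no counts in either reference, which fixes its place on that axis, and Cygb was near the floor in both.

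Among the 15 genes with the largest rises in the homodimer line, 13 were above all 9 other samples, and T and Sp8 were not. Tnnt1, the troponin T of slow muscle, was at 41.4, 40.7 and 50.6 CPM in the homodimer samples and 6.00, 5.92 and 3.96 CPM in the monomer samples (3.06 ± 0.13, adjusted p = 4.2e-15). In the uninduced monomer samples it was at 3.38, 2.90 and 1.94 CPM and in the parental samples at 2.29, 1.96 and 2.83 CPM. The homodimer samples thus lay far above the other 9, and the line-referenced difference was 3.22 ± 0.33 (adjusted p = 4.8e-07). Tnnt1 also passed as higher in the monomer line against its uninduced samples, but by less (0.99 ± 0.23, adjusted p = 0.0087). Cygb, a globin, had the largest difference of those named, at 8.64, 8.76 and 7.29 CPM against 0.793, 0.335 and 0.641 CPM (3.77 ± 0.26, adjusted p = 2.4e-11), with a line-referenced difference of 3.70 ± 0.80 (adjusted p = 0.0041), which did not pass in the fit of all 21 samples. Its reference samples lay at or below 0.434 CPM, close to the 3 counts taken as the floor (0.271 to 0.451 CPM).

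Cbln1 and Sncb were high in the homodimer samples alone. Cbln1, a secreted organiser of synapses, was at 9.50, 7.95 and 7.39 CPM in the homodimer and 1.25, 1.00 and 1.18 CPM in the monomer samples, and at 1.74, 1.41 and 1.42 CPM in the parental samples. Sncb, which encodes beta-synuclein, was at 11.7, 9.29 and 9.24 against 1.81, 2.34 and 1.92 CPM, with 2.07, 1.63 and 2.33 CPM in the parental samples. For both, the homodimer samples lay above the other 9, the monomer line did not pass against its uninduced samples, and the line-referenced differences passed (2.77 ± 0.38 and 2.20 ± 0.33). Ptpn5, a phosphatase of neurons, was at 14.8, 14.7 and 14.8 CPM in the homodimer against 3.17, 3.57 and 2.89 in the monomer, 1.45, 0.932 and 1.84 in the uninduced monomer and 0.98, 1.30 and 1.21 in the parental samples. It passed as higher in the monomer line too (1.17 against its uninduced samples), but by less (line-referenced difference 2.47 ± 0.35, adjusted p = 3.3e-05).

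A second set was higher in both induced lines than in their references and highest in the homodimer line. Fbln5, a component of elastic fibres, rose by 2.96 in the monomer line and 5.80 in the homodimer line against their references. It was at 2.38, 1.90 and 1.39 CPM in the monomer and 18.04, 14.7 and 16.9 CPM in the homodimer samples. Vstm2b was at 30.5, 22.2 and 24.2 CPM against 4.30, 4.24 and 4.17 CPM in the monomer samples and rose against both references (2.77 and 3.63). Slc8a3, a sodium-calcium exchanger, and Kcna5, a potassium channel, did so as well, with 2.73 and 2.23 between the induced lines. The line-referenced difference did not pass for any of these 4 genes. It was 2.84 ± 0.91 for Fbln5 (adjusted p = 0.055), 0.86 ± 0.45 for Vstm2b (adjusted p = 0.27), 1.65 ± 1.54 for Slc8a3 (adjusted p = 0.58) and 1.36 ± 0.72 for Kcna5 (adjusted p = 0.28). The adhesion receptor Adgrb2 was at 70.7, 56.2 and 54.1 CPM against 14.3, 10.8 and 11.8 CPM, above all 9 other samples.

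T and Sp8 were not low in the parental line. T (brachyury), the transcription factor of the primitive streak, was at 11.8, 8.49 and 8.73 CPM in the homodimer and 1.13, 1.45 and 0.962 CPM in the monomer samples (3.01 ± 0.23, adjusted p = 1.8e-10), but at 23.6, 29.5 and 25.1 CPM in the parental samples. The homodimer samples lay above the monomer line, induced or not, and below the parental line. Sp8, a zinc finger factor downstream of Wnt, was at 11.4, 12.2 and 13.7 against 2.72, 1.79 and 2.57 CPM (2.39 ± 0.17), and the parental samples were at 13.6, 15.97 and 15.3 CPM, where the difference from the homodimer line did not pass (-0.27 ± 0.12, adjusted p = 0.12). Otx1, a homeobox factor of the brain, was above all 9 other samples at 14.4, 9.47 and 13.97 CPM, while the uninduced monomer line (0.322, 0.207 and 0.485 CPM) lay below the parental line (2.18, 1.74 and 1.42 CPM). Calcrl, the receptor subunit for adrenomedullin, completed the 15 genes with the largest rises, at 4.97, 5.63 and 4.52 against 0.906, 1.12 and 1.18 CPM.

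**Figure D3:**
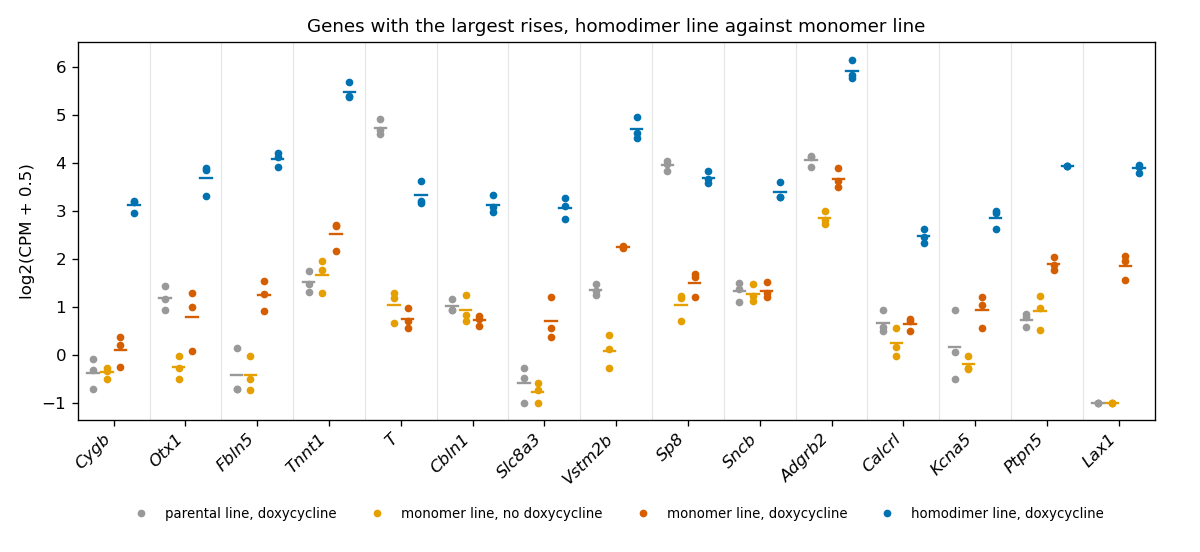
The 15 genes with the largest rises in the homodimer against the monomer line, as log2(CPM + 0.5) in 4 groups of 3 samples; points are samples and bars are group means. For Cygb, Tnnt1, Cbln1 and Sncb the homodimer samples stand apart from the other 9, whereas T and Sp8 are as high or higher in the parental line.

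The clearest group difference ran the other way and concerned primitive and visceral endoderm, the layer that surrounds the early epiblast and secretes basement membrane. Of 40 listed genes 36 were tested, and 30 were lower in the homodimer line, 27 of them by at least 2-fold, 1 was higher and 5 did not pass. The median was -2.08. The transcription factor Gata4 was at 11.9, 14.4 and 11.9 CPM in the homodimer and 72.6, 79.8 and 73.6 CPM in the monomer samples (-2.56 ± 0.086, adjusted p = 2.9e-17). Gata6 was at 4.10, 5.63 and 5.55 against 41.1, 45.9 and 50.2 CPM (-3.15 ± 0.13, adjusted p = 2.3e-15), and the groups of both were far apart. Sox7 (-3.09) and Sox17 (-3.01), which act with them in this layer, were lower as well. In whole embryoid bodies fewer endoderm cells and less RNA per endoderm cell cannot be told apart.

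The products of that layer were lower with its regulators. Lama1, the laminin chain of the earliest basement membrane, was at 94.8, 99.4 and 92.8 CPM in the homodimer and 599.9, 615 and 666 CPM in the monomer samples (-2.71 ± 0.059, adjusted p = 1.5e-20). Col4a1 was at 182, 187 and 166 against 787, 810.04 and 845 CPM and Col4a2 at 78.4, 76.1 and 62.7 against 416, 413 and 437 CPM (-2.19 and -2.54). These 2 collagen IV chains lie side by side on chromosome 8 and share a promoter region. The endocytic receptors Cubn (-2.90) and Lrp2 (-2.52), their adaptor Dab2 (-1.91) and the cubilin partner Amn (-2.50) fell together, as did Pdgfra (-2.79), a receptor that marks primitive endoderm. Of 16 tested basement membrane genes, 4 of which are in the endoderm list as well, 10 were lower and 1 higher, with a median of -0.60. Lamc1 was at 230.2, 222 and 203 against 710.2, 732 and 776 CPM, whereas Nid2 (-0.054 ± 0.052) did not pass. The 1 higher member was Col4a6, a call lost without homodimer sample 2 and in the fit of all 21 samples.

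Set beside the references, the monomer line held this endoderm expression with or without doxycycline. The summed CPM of the 40 listed genes was 1818 to 2037 in the homodimer samples, 6440 to 7129 in the monomer samples, 6913 to 8100 in the uninduced monomer samples and 2697 to 2729 in the parental samples. The homodimer samples therefore lay below all others, but the parental line was much closer to them than to the monomer line. Of the 36 tested genes, 31 were higher in the uninduced monomer line than in the parental line and 2 lower. Between induced and uninduced monomer samples 0 passed as higher and 8 as lower, where 3.94% and 2.45% of all genes did. Between the homodimer and parental lines 0 passed as higher and 27 as lower, where 10.5% and 10.8% did. In the line-referenced difference 20 were lower and 1 higher (Apoe, 0.30), where 4.45% and 3.87% of all genes were, with a median of -0.53 over the list.

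The line-referenced difference varied among the endoderm genes. Foxa2, a forkhead factor of definitive endoderm and the anterior streak, was at 2.38, 2.41 and 1.44 CPM in the homodimer samples, 11.2, 12.9 and 18.3 in the monomer, 14.5, 17.4 and 14.7 in the uninduced monomer and 14.9, 13.5 and 11.1 in the parental samples. The homodimer samples stood alone below the other 9 (-2.76 ± 0.21, adjusted p = 2.3e-10), and the references did not differ by a passing amount (0.25 ± 0.15, adjusted p = 0.2). Its line-referenced difference of -2.51 ± 0.27 (adjusted p = 9.9e-07) was therefore close to the direct one, as the formula requires. For Sox17 the line-referenced difference was -1.53 ± 0.21, for Gata6 -1.34 ± 0.19, for Sox7 -1.11 ± 0.21 and for Cyp26a1, which breaks down retinoic acid, -1.13 ± 0.15. For Hnf4a (-0.065 ± 0.21), Soat2 (0.14 ± 0.22), Epas1 (-0.26 ± 0.13) and Cited1 (0.23 ± 0.18) it did not pass. Fst, the activin antagonist follistatin, was the 1 list member higher in the homodimer than in the monomer line (0.61 ± 0.19, adjusted p = 0.014), a call lost without monomer sample 1 or homodimer sample 3.

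**Figure D4:**
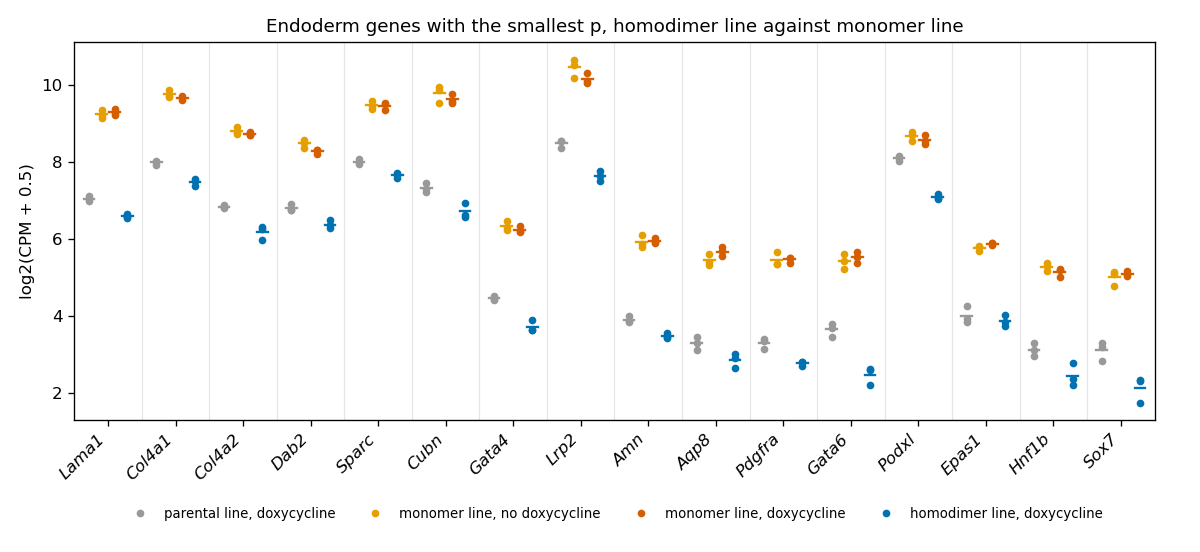
The 16 endoderm genes with the smallest p between homodimer and monomer, as log2(CPM + 0.5) in 4 groups of 3 samples; points are samples and bars are group means. The monomer samples lie at the level of the uninduced monomer samples, and the homodimer samples lie at or somewhat below the parental samples.

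The 15 genes with the largest falls in the homodimer line held Gata6, Sox7 and Sox17 from this list and 12 others with the same pattern. All 15 were higher in the uninduced monomer line than in the parental line, by 1.48 to 2.86, and none passed between induced and uninduced monomer samples. The steepest was Spock1, a proteoglycan, at 0.648, 0.536 and 0.513 CPM in the homodimer, 5.44, 9.26 and 6.20 in the monomer, 9.02, 8.91 and 7.86 in the uninduced monomer and 1.52, 0.869 and 1.11 in the parental samples (-3.60 ± 0.28). Slco2a1, a prostaglandin transporter, was at 2.70, 2.41 and 3.59 against 29.6, 29.02 and 29.7 CPM, with 6.10, 5.21 and 6.07 CPM in the parental samples. It was lower in the homodimer line than in the parental line as well (-1.01 ± 0.18, adjusted p = 1.3e-04). Srgn, the proteoglycan serglycin, was at 21.1, 26.1 and 23.1 against 163, 199 and 192 CPM. Plet1 (-3.20), Tinagl1 (-3.13), the forkhead factor Foxq1 (-3.10), the neuregulin Nrg2 (-3.05), Serpinb6c (-2.99), the FGF co-receptor Klb (-2.99), the autophagy gene Dram1 (-2.92), Naip6 (-2.91) and Scube2 (-2.91) made up the rest. The line-referenced difference passed as lower for 11 of the 15 and did not pass for Spock1, Nrg2, Serpinb6c and Klb.

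Over all genes the line-referenced difference passed for 1141 (8.32%), 531 as higher and 610 as lower in the homodimer line, with 219 at 2-fold or more (1.6%). The count was 944 without sample 1 of the uninduced monomer line and 274 in the fit of all 21 samples. Because the homodimer line was referenced to the doxycycline-treated parental line and the monomer line to its own uninduced samples, dimer form, doxycycline and line cannot be told apart in it. Beside Cygb, Tnnt1, Cbln1 and Ptpn5, the largest rises were in Mn1 and Pou4f2. Mn1, a transcriptional co-regulator, was at 12.7, 10.01 and 12.3 CPM in the homodimer, 4.87, 3.46 and 4.17 in the monomer, 4.67, 2.90 and 2.72 in the uninduced monomer and 1.63, 1.41 and 1.52 in the parental samples (2.58 ± 0.31, adjusted p = 5.1e-06). Pou4f2, a POU factor of retinal neurons, had opposite signs in the 2 comparisons. It was lower in the homodimer than in the monomer line (4.54, 4.56 and 4.21 against 6.91, 7.92 and 8.02 CPM), but the uninduced monomer samples were at 10.3, 9.12 and 13.3 CPM and the parental samples at 0.98, 0.978 and 1.72 CPM, so that its line-referenced difference was 2.36 ± 0.30 (adjusted p = 8.2e-06).

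The largest line-referenced falls were Hprt (-4.98), Foxa2, Fst, Eomes, Mcc and Twist1. Eomes, a T-box factor of the streak, was at 17.6, 20.2 and 17.4 CPM in the homodimer and 20.8, 22.7 and 22.1 CPM in the monomer samples, a difference that did not pass (-0.25 ± 0.11, adjusted p = 0.078). The parental samples were at 126, 144 and 131 CPM and the uninduced monomer samples at 27.4, 24.04 and 32.2 CPM, which gave a line-referenced difference of -2.50 ± 0.14. Fst behaved likewise, at 6.80, 6.88 and 9.65 and 4.19, 5.13 and 5.88 CPM in the induced lines and 87.2, 112 and 104 CPM in the parental line. For both genes the parental line had the highest level, and the induced lines were close to each other beside it. Mcc, in contrast, rose in the monomer line (20.7, 15.4 and 18.9 against 5.16, 6.42 and 6.99 CPM uninduced) and was lower in the homodimer line (6.59, 5.90 and 6.57 CPM) than in the parental line (10.7, 15.1 and 10.02 CPM).

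Genes that differed in both induced lines were examined next, since the monomer against its uninduced samples and the homodimer against the parental line share no sample. In the first comparison 876 genes passed (6.39%) and in the second 2926 (21.3%). Of 540 genes higher on monomer induction, 300 (55.6%, and 20.8% of the 1442 higher in the homodimer line) were higher in both, and 35 were higher in the first and lower in the second. Of the 336 lower on monomer induction, 155 (46.1%, and 10.4% of the 1484 lower in the homodimer line) were lower in both. The genes named next were picked, after the values were seen, from those with larger changes in the weaker of the 2 comparisons. They are a selection and not a ranking. Among genes higher in both, Lax1 (7.89 in the monomer and 10.06 in the homodimer line) changed more than any of them. Among genes lower in both, Pcdh8 (-1.42), Pdlim3 (-1.29) and Fst (-1.20) are passed over, although only Apln of those named fell more in the weaker comparison. Epha3, an ephrin receptor, was at 20.5, 20.1 and 21.2 CPM in the homodimer, 12.5, 12.2 and 12.3 in the monomer, 0, 0.414 and 0.388 in the uninduced monomer and 0.871, 0.326 and 0.101 in the parental samples. The 2 induced lines differed by 0.74 ± 0.13 (adjusted p = 8.1e-05). Cd34, a sialomucin of endothelial and blood progenitors, was at 114, 108 and 117 CPM in the homodimer and 78.2, 71.8 and 74.9 CPM in the monomer samples, with 5.32, 7.25 and 4.85 CPM in the uninduced monomer and 5.45, 5.21 and 4.76 CPM in the parental samples. The homodimer samples lay above the monomer samples (0.59 ± 0.061, adjusted p = 4.1e-08).

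Within these shared responses, some were larger in the homodimer line at its lower level of Twist1 RNA. Plcd1, a phospholipase C, was at 84.1, 77.7 and 81.03 CPM in the homodimer, 34.2, 30.7 and 29.4 in the monomer, 7.89, 7.36 and 7.28 in the uninduced monomer and 7.73, 7.60 and 6.88 in the parental samples. The 2 references overlapped, so by its formula the line-referenced difference of 1.38 ± 0.15 (adjusted p = 1.0e-06) was close to the direct one of 1.36 ± 0.065. Boc, a co-receptor for hedgehog, was at 32.2, 29.4 and 26.6 against 8.27, 8.26 and 6.52 CPM, with 2.09, 1.55 and 2.43 CPM in the uninduced monomer and 2.61, 2.72 and 3.34 CPM in the parental samples (line-referenced 1.42 ± 0.28, adjusted p = 0.0017). Apela, a peptide ligand of the apelin receptor, was at 68.7, 71.7 and 75.4 against 41.4, 37.7 and 31.00 CPM, with means of 12.4 and 11.4 CPM in the references (line-referenced 1.09 ± 0.16, adjusted p = 4.0e-05). For Tex15, Iffo2, Eva1b and Tgfbi the induced lines did not differ by a passing amount (-0.064 ± 0.075, -0.072 ± 0.081, 0.13 ± 0.085 and 0.12 ± 0.10). For Tgfbi, a matrix protein, the references differed (4.76 CPM in the uninduced monomer and 1.09 CPM in the parental line), and the line-referenced difference passed (2.22 ± 0.25, adjusted p = 1.9e-06). Otop1, a proton channel, was at 4.54, 5.99 and 5.03 CPM in the homodimer and 7.59, 5.80 and 7.70 CPM in the monomer samples, which did not pass (-0.43 ± 0.17, adjusted p = 0.0501).

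Among genes lower in both, Apln, the ligand apelin, fell to 1.81, 1.90 and 0.855 CPM in the monomer samples from 4.67, 5.70 and 6.12 CPM uninduced, and was at 3.78, 3.13 and 4.21 CPM in the homodimer against 21.8, 22.5 and 19.8 CPM in the parental samples. The homodimer line had the higher level of the 2 (1.28 ± 0.25, adjusted p = 2.3e-04). The chemokine Cxcl12 followed the same order, at 15.3, 12.7 and 15.5 CPM in the homodimer and 7.02, 7.48 and 7.70 CPM in the monomer samples. So did Trh, thyrotropin-releasing hormone, with means of 661 and 291 CPM against 495 CPM uninduced and 1737 CPM in the parental line. For all 3 genes the line-referenced difference had the opposite sign, and the parental line exceeded the uninduced monomer line. It passed for Cxcl12 (-0.93 ± 0.15, adjusted p = 1.2e-04) and Trh (-0.63 ± 0.11, adjusted p = 6.3e-04) and not for Apln (-0.65 ± 0.31, adjusted p = 0.21). For Fam122b (-0.049 ± 0.12) and Eras (0.09 ± 0.11) the induced lines did not differ by a passing amount.

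The lists that follow are described by their counts beside the shares of all tested genes, 17.5% higher and 17.2% lower, and by their median beside the all-gene median of 0.0073. Of 25 primitive streak and nascent mesoderm genes 18 were tested, 5 were higher in the homodimer line, 2 lower (Foxa2 and Lhx1) and 11 did not pass, with a median of 0.17. The 5 were T, Apln, Rspo3 (1.36), Evx1 (1.51) and Wnt3 (0.76). The count was 3 in the fits of 20 and of 21 samples, with DESeq2, and without any 1 of the 3 monomer samples or homodimer sample 2. Without homodimer sample 2, 4 were lower. Summed over the list the homodimer samples were at 57.5 to 64.2 CPM and the monomer samples at 66.2 to 78.8 CPM, while the parental samples were at 309.9 to 361.6 CPM. Both induced lines, and the uninduced monomer line at 84.3 to 88.4 CPM, were thus far below the parental line in streak genes. In the line-referenced difference 0 were higher and 11 lower.

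Wnt targets and feedback genes were divided, with 7 of 19 higher, 3 lower and 9 not passing. In the line-referenced difference 0 were higher and 7 lower, with a median of -0.74. Axin2, the feedback inhibitor of the pathway, was at 24.8, 23.9 and 20.6 CPM in the homodimer, 13.1, 11.8 and 12.9 in the monomer and 34.9, 41.5 and 40.6 in the parental samples (0.87 ± 0.10, adjusted p = 2.3e-07). Its line-referenced difference had the opposite sign (-1.15 ± 0.15, adjusted p = 1.1e-05). Nkd1, also a feedback inhibitor, was at 8.42, 6.61 and 7.39 against 3.62, 2.90 and 2.99 CPM (1.23 ± 0.19). Dkk1, a secreted antagonist that is also in the endoderm list, was lower, at 1.62, 1.79 and 2.05 against 12.5, 11.4 and 9.52 CPM (-2.60 ± 0.18). Of the Nodal pathway 4 of 16 were higher and 6 lower, and 2 were higher without monomer sample 1 or homodimer sample 3. Among the lower was Lefty1 at 62.96, 62.7 and 54.2 against 94.3, 115 and 106 CPM.

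Naive pluripotency genes were lower in the homodimer line for 13 of 18, higher for 1 and not passing for 4, with a median of -0.58. In the fit of all 21 samples 7 were lower. Klf5 was at 20.95, 19.9 and 16.6 CPM in the homodimer and 55.5, 55.8 and 52.7 CPM in the monomer samples (-1.51 ± 0.077), with 20.1, 19.8 and 21.3 CPM in the parental samples, and Klf4 at 4.10, 4.82 and 3.90 against 14.4, 16.5 and 14.6 CPM (-1.82 ± 0.15). Their line-referenced differences did not pass (-0.026 and -0.12). Tbx3, which is listed with lateral mesoderm as well, was at 4.10, 5.09 and 4.72 against 27.3, 28.5 and 28.7 CPM, and Stat3 at 34.3, 34.8 and 32.7 against 60.2, 58.03 and 57.4 CPM. Line-referenced, 8 of the 18 were higher and 3 lower, with a median of 0.56, so the list's median had opposite signs in the 2 comparisons. Nanog went the other way in the direct comparison (0.34 ± 0.072), with means of 70.7 and 56.1 CPM in the induced lines and 211 CPM in the parental line, and its line-referenced difference was -1.15 ± 0.10 (adjusted p = 2.6e-08). Core pluripotency genes had 1 higher, 2 lower and 7 not passing of 10.

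Formative and epiblast genes, which mark the step after naive pluripotency, were split with 8 higher and 7 lower of 18. Fgf5 was at 105, 121 and 119.5 against 83.3, 80.8 and 81.1 CPM (0.49 ± 0.058) and the kinase Pim2 at 395, 409.7 and 391 against 257, 238 and 225 CPM (0.73 ± 0.051). Of 16 DNA methylation genes 0 were higher and 6 lower, with Dnmt3l at 111, 139.8 and 122 against 173, 186 and 166 CPM. Leaving out homodimer sample 2 gave 1 higher and 3 lower.

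Eph receptors and ephrins, which guide cell contacts and boundaries, leaned to the homodimer line, with 12 of 19 tested members higher, 3 lower and 4 not passing, and a median of 0.57. The ligand Efnb2 was at 141, 123 and 131 CPM in the homodimer and 77.5, 80.1 and 79.8 CPM in the monomer samples (0.74 ± 0.062), and the receptor Ephb2 at 44.4, 39.9 and 34.8 against 18.6, 19.6 and 21.4 CPM (1.00 ± 0.086). The 3 lower members were Efnb1 at 5.08, 6.08 and 5.85 against 21.2, 18.6 and 20.7 CPM, Epha2 at 71.9, 75.8 and 68.7 against 119, 139.5 and 138 CPM and Efna3 (-1.04). Line-referenced, 3 were higher and 3 lower.

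Notch pathway genes had 8 of 18 higher, 1 lower and 9 not passing, with a median of 0.28, and 3 were higher in the fit of all 21 samples. Lfng, which modifies Notch receptors, was at 18.5, 18.8 and 15.9 CPM in the homodimer and 8.49, 8.26 and 6.41 CPM in the monomer samples (1.20 ± 0.13, adjusted p = 4.9e-08), with 2.90, 3.73 and 3.79 CPM in the uninduced monomer and 4.57, 3.91 and 4.86 CPM in the parental samples. Hes6 was at 70.95, 68.97 and 74.3 against 50.5, 50.9 and 48.4 CPM (0.51 ± 0.06), and Hey1, a target gene, at 6.91, 6.43 and 6.78 against 3.74, 2.34 and 3.31 CPM (1.09 ± 0.18). Rbpj, the DNA-binding partner of Notch, was the lower one (-0.35 ± 0.05).

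Other signalling lists were mixed. FGF ligands, receptors and feedback genes had 9 higher and 10 lower of 25, with the receptor Fgfr1 at 278, 243 and 249.8 against 153, 144 and 142 CPM and the feedback phosphatase Dusp6 at 201, 219.7 and 208 against 146, 141 and 138 CPM, while Fgf10 (-2.63) and Flrt3 (-2.15) were lower. BMP genes had 7 higher and 7 lower of 23, with Bmp6 (-2.45), Bmper (-2.56) and Gdf6 (-2.63) among the lower. Of 16 retinoic acid genes 7 were higher and 3 lower. The synthesis gene Rdh10 was lower at 10.8, 12.7 and 8.63 against 26.3, 27.01 and 29.6 CPM. The IGF axis had 7 higher and 5 lower of 14, with Igfbp3 (1.02 ± 0.086) and Igfbp4 (1.02 ± 0.091) higher and the clearance receptor Igf2r lower (-0.70 ± 0.064). Leaving out monomer sample 1 left 1 lower, and leaving out monomer sample 2 or homodimer sample 1 left 3.

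Among lineage lists, neural genes had 8 higher and 4 lower of the 19 tested of 40 listed. Tubb3, the tubulin of neurons, was at 88.99, 84.6 and 88.3 CPM in the homodimer and 59.7, 61.4 and 56.8 CPM in the monomer samples, with means of 47.2 and 39.02 CPM in the references (line-referenced 0.83 ± 0.11, adjusted p = 2.2e-05). Pax6 was at 8.42, 7.24 and 7.50 against 3.62, 3.12 and 3.10 CPM (1.23 ± 0.17), whereas Gbx2 was lower at 0.972, 1.25 and 0.205 against 3.51, 3.68 and 3.96 CPM. Hemangiogenic and endothelial genes had 3 higher and 6 lower of 17, with Runx1 at 1.73, 1.34 and 1.85 against 11.2, 12.2 and 12.4 CPM (-2.87 ± 0.18) and Cdh5 at 1.51, 0.983 and 1.75 against 5.78, 8.04 and 8.66 CPM. Of 12 lateral and cardiac mesoderm genes 2 were higher and 6 lower, and of those 6, Gata4 and Gata6 are in the endoderm list and Tbx3 in the naive list as well. Of 9 tested paraxial and intermediate mesoderm genes 3 were higher, 3 lower and 3 did not pass, and 1 was higher without monomer sample 2 or homodimer sample 3. Each of the 2 higher lateral calls, Mef2c and Msx1, was lost without monomer sample 3.

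Genes of epithelial-mesenchymal transition (EMT), a programme in which TWIST1 is best known, did not move in 1 direction. Of 31 tested EMT factors and mesenchymal genes 13 were higher, 9 lower and 9 not passing, with a median of 0.12, and without homodimer sample 2 the lower count was 5. Snai1 (-0.14 ± 0.20, adjusted p = 0.63) and Snai2 (-0.044 ± 0.43, adjusted p = 0.95), repressors of E-cadherin, did not pass. Mmp2, a matrix protease, was at 108, 103 and 104 against 70.5, 68.5 and 65.9 CPM (0.62 ± 0.059) and Tagln, an actin-binding protein, at 11.7, 14.3 and 12.02 against 4.76, 5.69 and 5.35 CPM (1.27 ± 0.14). The matrix enzyme Loxl2 was lower at 11.02, 9.29 and 9.96 against 24.9, 26.3 and 29.2 CPM (-1.42 ± 0.10). Cdh1, which encodes E-cadherin, was higher in the homodimer line (1018, 958 and 943 against 747, 774 and 740.4 CPM) and did not pass against the parental line (-0.069 ± 0.042, adjusted p = 0.27). Epithelial junction and keratin genes as a list had 8 higher and 9 lower of 33.

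Of 40 tested glycolysis and hypoxia response genes 20 were lower in the homodimer line, 6 higher and 14 not passing, with a median of -0.19, and 12 were lower in the fit of all 21 samples. The glucose transporter Slc2a3 was at 305, 331 and 290.3 CPM in the homodimer and 648, 724 and 749 CPM in the monomer samples (-1.19 ± 0.059), and the collagen prolyl hydroxylase P4ha2 at 12.4, 13.8 and 13.8 against 35.3, 36.4 and 36.7 CPM (-1.44 ± 0.082). Between the references, 22 of the list were higher in the uninduced monomer than in the parental line and 4 lower. Of 22 p53 targets 10 were lower and 1 higher, with Plk3 at -1.06, and of 19 integrated stress response genes 8 were lower and 2 higher, with Atf3 at 3.46, 2.86 and 3.70 against 16.4, 19.8 and 18.2 CPM (-2.45 ± 0.14). Genes of S phase and mitosis had 5 higher, 5 lower and 17 not passing of 27, and without monomer sample 3 or homodimer sample 3 the higher count was 1. Of the 13 mitochondrially encoded genes 8 were lower, and mitochondrial genes took 1.95% to 2.12% of the counts in the homodimer samples and 2.40% to 2.59% in the monomer samples. The part of this share in the results above was not tested.

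Imprinted genes had 10 higher and 9 lower of 38. Nnat, a neuronal proteolipid, was at 70.8, 61.5 and 68.5 CPM in the homodimer, 25.8, 28.3 and 25.9 in the monomer, 26.1, 27.2 and 23.8 in the uninduced monomer and 15.6, 12.2 and 11.5 in the parental samples (1.32 ± 0.081, line-referenced 2.30 ± 0.13). Other tissue-specific bHLH factors had 1 higher and 6 lower of 13 tested. Tcf23 was at 2.81, 3.57 and 2.16 against 18.3, 18.5 and 20.3 CPM (-2.72 ± 0.14), and the uninduced monomer line exceeded the parental line (2.34 ± 0.13). Markers of other cells that embryoid bodies or their culture could hold were counted too. Germ cell markers had 1 higher of 10, trophoblast markers 1 higher of 10, blood markers 1 higher of 3, and the 1 tested gene of the 2-cell-like state did not pass. Fibroblast or feeder markers had 3 higher and 4 lower of 10 (2 lower without homodimer sample 1 or 2), and their summed level was 63.7 to 77.5 CPM in the homodimer and 73.7 to 77.6 CPM in the monomer samples.

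**Figure D5:**
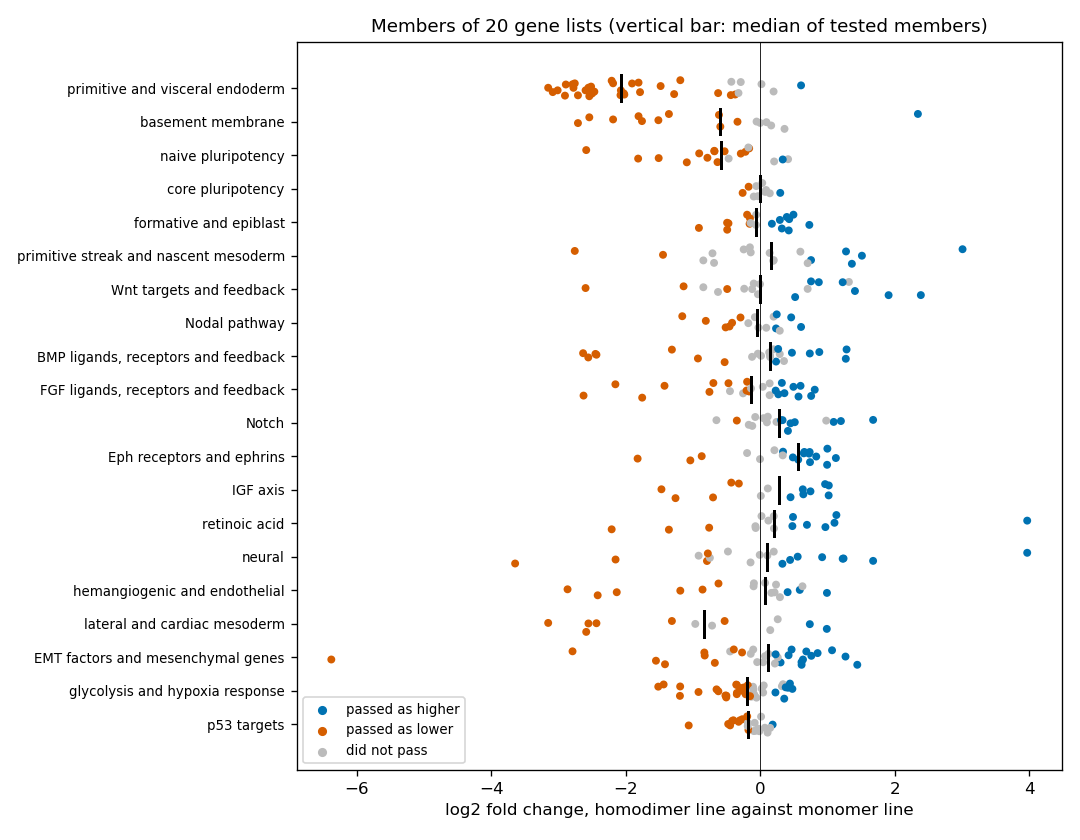
Log2 fold change of homodimer against monomer for the tested members of 20 lists; each point is a gene, coloured by whether it passed, and the vertical bar is the list's median. The endoderm list lies to the left with a median of -2.08, the Eph list to the right with 0.57, and most other lists straddle 0.

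Genes of chromosome 8 were shifted together, a chromosome chosen after its values were seen. For the 515 of its genes that averaged 10 CPM or more, the median log2 fold change relative to such genes of the other chromosomes was 0.17, and 45.8% were higher in the homodimer line and 9.51% lower, against 17.8% and 20.2% of the 8697 such genes. Relative to the monomer mean the homodimer samples lay at 0.156 to 0.178 and the monomer samples at -0.016 to 0.0084. The parental samples lay at 0.103 to 0.113 and the uninduced monomer samples at -0.0117 to 0.0172, so both states of the monomer line were on 1 side and the other 2 lines on the other. Chromosomes 14 and 1 were shifted the opposite way. On the same scale, chromosome 14 had a mean of -0.071 in the homodimer and -0.070 in the parental samples, with 36.9% of its genes lower in the homodimer than in the monomer line and 14.6% higher. Chromosome 1 had a mean of -0.052 in the homodimer and -0.070 in the parental samples, with 25.3% lower and 14.7% higher. Of the genes named above, Cbln1, Tubb3, Nkd1, Mmp2, Fgfr1, Efnb2, Cdh1 and Cdh5 are on chromosome 8, as are Apela, Pou4f2, Col4a1 and Col4a2. Sox7 and Klf5, both lower in the homodimer line, are among the named genes on chromosome 14. Those on chromosome 1 include Sox17 and Lefty1, which were lower, and Lax1 and Cd34, which were higher. The part of these shifts in the values of the named genes was not tested. The Y-linked genes Ddx3y and Uty, also chosen after their values were seen, separated the monomer line from the other lines. Other Y-linked genes are not reported here. Ddx3y was at 8.42, 9.47 and 7.19 CPM in the homodimer, 1.93, 2.34 and 1.92 in the monomer, 2.26, 1.86 and 2.04 in the uninduced monomer and 5.99, 6.63 and 7.39 in the parental samples, and Uty at 7.34, 4.91 and 5.96, against 1.59, 2.01 and 1.07 CPM in the monomer samples. For both genes the monomer line, with or without doxycycline, lay below all homodimer and parental samples. The part of this line difference in the results was not tested.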

How the data were processed

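Per the labels' protocols, RNA of day 3 embryoid bodies was made into TruSeq mRNA libraries. The submitters' processing notes name FastQC, TopHat2, HTSeq and the builds mm10 and GRCm38, without versions or roles. The authors deposited raw counts per gene symbol, 1 table of 48321 symbols per sample. Since 25 symbols had become dates in the files of 18 samples, the counts were joined by position. Strand was not given in the sources used here, so antisense or overlapping genes and near-identical copies may share reads.

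Homodimer, monomer, uninduced monomer and parental samples (3 each) were fitted together with edgeR 4.0.16 (quasi-likelihood F-test, TMM, default filterByExpr with a count of 10 and a total of 15, Benjamini-Hochberg adjustment over 13718 genes). R 4.3.3, limma 3.58.1, DESeq2 1.42.0 and Python 3.11.15 were used. The procedure was tested on simulated data. CPM were computed from the deposited counts and TMM factors. The floor is 3 counts. CPM depend on transcript length and are not compared between genes.

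The comparison and the gene lists were chosen with earlier results of these data known. Named genes were the 15 higher and 15 lower (6 and 6 line-referenced) with the largest passing log2 fold change, no overlap between groups and at least 5 CPM, without gene models. To these were added the construct, Id and Hprt genes and up to 4 passing members with the smallest p per list. Other list members, and the genes of both induced lines, were named after their values were seen. Some members are not reported here. Symbols matched RefSeq for 12795 genes (93.3%). Alternatives were RLE factors, library size, other filters, DESeq2, 6, 20 or 21 samples, a replicate block and leaving out each sample.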

Additional observations from a re-analysis of the deposited data

Results flagged for a closer look

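The change of the homodimer line against the parental line differed from the change of the monomer line against its uninduced samples for 1141 of 13718 genes, tested as an interaction contrast with edgeR. The homodimer line had no uninduced samples, so the 2 references differ in line and in doxycycline. Groups of 3 samples were not examined for single outlying values.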

How the results depend on the processing

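With all 21 samples in the fit, 2642 genes passed between homodimer and monomer (1309 higher, 1333 lower) against 4767 (2405 and 2362), and 274 in the line-referenced difference (135 higher, 139 lower, 138 by at least 2-fold) against 1141 (531, 610 and 219). The biological coefficient of variation was then 0.12, against 0.0539 for 20 samples without 1 TCF12 dimer library and 0.0574 for the 12. DESeq2 gave 724 line-referenced genes (338 higher, 386 lower), and the cause was not tested. Between homodimer and monomer, 20 samples gave 4803, the 6 compared samples alone 4813, RLE factors 4764, library size 4735, no filter 4720, a filter of 1 CPM 4798 and DESeq2 3665. Leaving out 1 sample gave 4104 to 4950 (2017 to 2445 higher, 2058 to 2559 lower, 797 to 839 by at least 2-fold) and, line-referenced, 821 to 1320 (377 to 639, 434 to 681, 192 to 225). The leave-outs of reference samples were chosen after seeing the data. Monomer induction called 540 genes higher and 336 lower, and 440 and 235 without sample 1 of the uninduced monomer line. The main fit did not pair samples by replicate number. Pairing was examined on each gene's deviation from its group mean in log2(CPM + 0.5), for 9109 genes averaging at least 10 CPM. The correlation of these deviations between same-numbered homodimer and monomer samples was 9.31e-05 to 0.225 (mean 0.128). For differently numbered ones it was -0.204 to 0.0533 (mean -0.0643). The 3 deviations of a gene within a group sum to 0. The mean for differently numbered samples is therefore largely set by the same-numbered mean and is no separate observation. The fit with the replicate block gave 4873 genes between homodimer and monomer and 1203 line-referenced. None of the 149 checked values of genes named by rule reversed in any of these settings. The line-referenced values among them were those of genes chosen by that difference and of the construct, Id and Hprt genes. Other line-referenced values, and genes named after their values were seen, were not all checked. In the fit of 21 samples 11 of 149 values of named genes lost the call. That fit also moved the counts of several lists, in higher and lower order, to 8 and 5 for EMT, 4 and 4 for formative, 4 and 4 for epithelial and 0 and 2 for S phase and mitosis genes. It left 5 higher for FGF, 3 for BMP and 4 for imprinted genes, and 2 lower for DNA methylation, 5 for p53, 5 for stress response and 4 for mitochondrial genes. With 3 against 3 samples a permutation test cannot go below 0.1, and genes near the floor of 0.271 to 0.451 CPM are measured poorly.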
